A study of Homo sapiens with 15 samples.

Results

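Transcripts of the plasminogen activators and of inhibitors that act on them or on related proteases were followed in A673 cells, an Ewing sarcoma line. The group holds the activators *PLAU* and *PLAT*, the receptor *PLAUR*, and the inhibitors *SERPINE2*, *SERPINB2*, *TFPI2*, *A2M* and *A2ML1*. These 8 genes, of 57820 in the count table, were picked by name after earlier results of the same libraries were known, including their levels with and without EWS/FLI. Their p-values therefore set each difference against the spread between libraries and are no independent evidence. All 8 passed the filter on low counts, which kept 28793 genes for testing.

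Plasminogen is an inactive circulating enzyme that is cut to plasmin by either of its activators, urokinase (uPA, from *PLAU*) or the tissue-type activator (tPA, from *PLAT*). Urokinase is held at the cell surface by its receptor uPAR (from *PLAUR*), so that plasmin forms where cells meet fibrin and extracellular matrix. Serpins trap the activators in a covalent complex, Kunitz-type inhibitors block the active site of plasmin, and the α2-macroglobulins cage proteases of many classes. Urokinase and its receptor are known from studies of tumor cell invasion in many cancers, while EWS/FLI, the fusion oncoprotein of Ewing sarcoma, is known both to activate and to repress genes.

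Each of 5 conditions had 3 libraries of total RNA, and all cells went through the same retroviral KD/rescue scheme. In iLuc cells the shRNA targeted luciferase, an empty vector followed, and endogenous EWS/FLI (endo-EF) was kept. In iEF cells EWS/FLI was the target and an empty vector followed. The remaining cells combined the EWS/FLI shRNA with a FLAG-tagged cDNA of wildtype EWS/FLI (WT-EF), Δ22 or DAF. Δ22 lacks the EWS domain. In DAF, tyrosines in the amino-terminal part of that domain are changed to alanine, and others are kept. Cells were infected with the shRNA virus on day 1 and with the cDNA or empty vector virus on day 5, and selection in 2 µg/mL puromycin and 400 µg/mL hygromycin B lasted until day 16. The cells are selected populations of a single line. The study shows the scheme as run for one replicate and speaks of independent experiments for colony assays of the profiled cells, while the labels themselves name no cultures. The p-values set each difference against the spread left among all 15 libraries once condition and replicate number were allowed for.

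Total counts per library ran from 28659475 to 41859880. *FLI1*, whose reads include those of EWS/FLI and of the cDNAs, was at 47.8 to 52.4 CPM (read counts scaled to a common library size, after TMM normalization) in iLuc libraries and at 12.9 to 15.5 CPM in iEF libraries. It reached 16.0 to 18.7 CPM with WT-EF, 22.1 to 27.3 CPM with DAF and 24.4 to 36.2 CPM with Δ22, so the iLuc libraries stood highest and the WT-EF libraries lowest among the cells with a construct. Of the defining markers of Ewing sarcoma cells, *NR0B1*, *NKX2-2*, *STEAP1* and *CCND1* were counted in every condition. *CD99* had at most 3 counts in any library. Whether its reads were lost in counting was not tested, so these counts are not read as absence of the marker. Markers of other cell types were low: the summed level of *CDH5*, *VWF* and *TIE1* (endothelial) was 0.239 to 10.3 CPM, and that of *PTPRC*, *CD14*, *LYZ* and *CSF1R* (macrophages and monocytes) was 0.550 to 5.37 CPM. The sum of *EPCAM*, *CDH1*, *KRT8* and *KRT18* (epithelial) was 27.1 to 109.5 CPM, nearly all of it from the keratins, with *EPCAM* at up to 0.985 CPM and *CDH1* at up to 3 counts. The endothelial and macrophage sums were lower in iLuc and WT-EF than in iEF libraries, at up to 1.05 and 1.41 CPM against at least 1.48 and 2.44 CPM. Their part in the results was not tested.

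**Figure D1:**
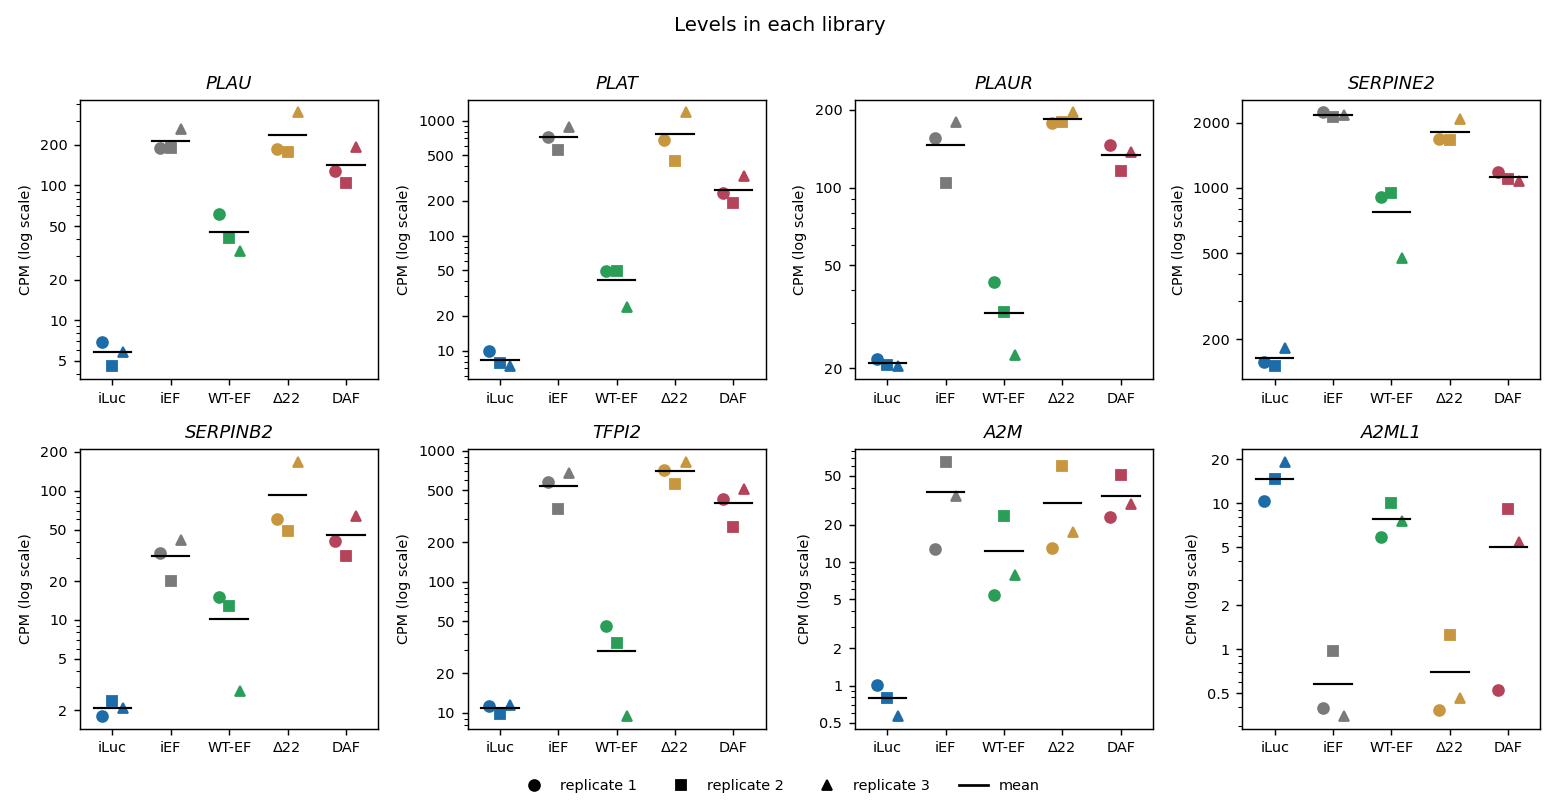
Level of each of the 8 genes (CPM, log scale) in each library, by condition. Points are libraries, with the shape giving the replicate number, and bars are means of 3. For all but *A2ML1*, the iLuc libraries lie lowest apart from an overlap with WT-EF for *TFPI2*, while *A2ML1* is highest in iLuc.

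Sequence upstream of the genes was searched for short matches, as a guide to what lies at these promoters. Windows from 250 bases before to 50 bases after the RefSeq start (GRCh38.p14) were searched for *A2ML1*, *PLAU*, *PLAUR*, *SERPINE2*, *SERPINB2* and *TFPI2*. *PLAT* was left out of the search by choice, and no window was given for *A2M*. The core of ETS sites, GGAA on either strand, was present in all of these windows, and in 95.5% of 35116 promoters of the genome. The repeat GGAAGGAA was in none of the windows, and in 3.67% of all promoters. The letters TGANTCA, a loosened form of the AP-1 site with any base in the middle, were found in the windows of *PLAUR*, *SERPINB2* and *TFPI2* and in 7.71% of all promoters. The match of *PLAUR*, TGAGTCA, is the AP-1 consensus itself, and those of *SERPINB2* and *TFPI2*, TGAATCA, are not. These 3 matches are shown since they are shared by the receptor and a serpin and Kunitz inhibitor, with the match in capitals and each sequence read 5′ to 3′ on the strand of its gene. A match is a description of the sequence and no site of binding.
*PLAUR*: cacaactccaTGAGTCAgggccgagcca
*SERPINB2*: agtaaaatgtTGAATCActcaaaggaca
*TFPI2*: tccccgtgcaTGAATCAgccacccctca
The *PLAUR* sequence is chr19:43670338-43670365 on the minus strand, with its match beginning 186 bases before the start. That of *SERPINB2* is chr18:63887593-63887620 on the plus strand, 102 bases before the start. That of *TFPI2* is chr7:93890823-93890850 on the minus strand, 87 bases before the start.

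Libraries within a condition were not equally apart. WT-EF replicate 3 was the lowest of its condition for 6 of the 8 genes, the exceptions being *A2M* and *A2ML1*, and Δ22 replicate 3 was the highest for 6. *FLI1* in WT-EF replicate 3 was at 18.7 CPM, against 16.0 and 18.0 CPM in the others. The ratio of the highest to the lowest library was 5.30 for *SERPINB2* and 4.86 for *TFPI2* in WT-EF, 17.3 for *A2ML1* in DAF, and 5.07 for *A2M* in iEF. It was 1.05 for *SERPINE2* in iEF and 1.07 for *PLAUR* in iLuc. Without WT-EF replicate 3, all 8 genes were still called between WT-EF and iEF and 7 between WT-EF and iLuc, while the number called rose to 2 with Δ22, 5 with DAF and 6 between DAF and Δ22. The share of all genes called in that fit was not counted, so the rise is not read as particular to the 8 genes. The value of *SERPINB2* with WT-EF was then -0.82 (adjusted p = 0.029) and that of *TFPI2* -3.55. Without DAF replicate 1, which was low in *A2ML1*, the change of that gene with DAF was 3.48 (adjusted p = 6.26e-05).

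Endo-EF and WT-EF were each compared with iEF to see which of these genes EWS/FLI activated or repressed. With endo-EF, *PLAU*, *PLAT*, *PLAUR*, *SERPINE2*, *SERPINB2*, *TFPI2* and *A2M* were lower than in iEF cells and *A2ML1* was higher. All 8 passed an adjusted p of 0.05 in the quasi-likelihood test of edgeR, adjusted by the Benjamini-Hochberg method, as did 41.6% of all genes tested (22.1% lower and 19.5% higher). With WT-EF the same 7 were lower and *A2ML1* was higher, against 29.9% of all genes tested (17.0% lower and 12.9% higher). Both comparisons used the same iEF libraries. In limma on counts that the study had adjusted for batch (ComBat), the endo-EF changes were called for the same 8 genes but were smaller, at -4.17 for *PLAT*, -3.57 for *PLAU*, -3.52 for *TFPI2*, -3.46 for *A2M*, -2.96 for *SERPINE2*, -2.81 for *SERPINB2*, -2.20 for *PLAUR* and 3.63 for *A2ML1*. Those with WT-EF included -3.11 for *PLAT*, -2.92 for *TFPI2* and 2.92 for *A2ML1*. In bulk RNA, fewer cells expressing a gene and less RNA per cell cannot be told apart.

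*PLAU* (ENSG00000122861, GRCh37 chr10:75668935-75677254, plus strand) encodes urokinase. It was at 6.94, 4.54 and 5.85 CPM in the iLuc libraries and at 189, 189 and 262 CPM in the iEF libraries. The WT-EF libraries had 61.8, 40.7 and 32.8 CPM. Both sets lay below every iEF library, and WT-EF lay above every iLuc library. *PLAU* fell by 5.21 on the log2 scale with endo-EF (36.9-fold, SE 0.29, adjusted p = 5.78e-09) and fell by 2.21 with WT-EF (4.63-fold, SE 0.25, adjusted p = 1.04e-05). DAF libraries had 128, 104 and 194 CPM and Δ22 libraries 187, 178 and 348 CPM, and both overlapped the iEF libraries. The *C10orf55* gene lies on the opposite strand and shares 915 bases of exon with *PLAU*. Its mean was 0.198 CPM in iLuc and 1.77 CPM in iEF cells, and whether the counting used strand is not given in the sources used here.

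*PLAT* (ENSG00000104368, chromosome 8, minus strand) encodes tPA. Its iEF libraries had 718, 554 and 872 CPM and its iLuc libraries 9.87, 7.74 and 7.28 CPM. WT-EF brought it to 49.5, 48.9 and 24.1 CPM, above all iLuc and below all iEF libraries. No other member had as large a change with endo-EF: *PLAT* fell by 6.40 (84.5-fold, SE 0.38, adjusted p = 1.06e-08), which placed it 177th from the lowest of 28793 genes. It fell by 4.06 with WT-EF (16.7-fold, SE 0.34, adjusted p = 7.44e-07). With DAF the libraries had 234, 190 and 327 CPM, below every iEF library but far above WT-EF, and with Δ22 they had 672, 447 and 1178 CPM.

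*PLAUR* (ENSG00000011422, chr19:44150247-44174699, minus strand), the gene of the urokinase receptor, changed less. It was at 21.7, 20.6 and 20.3 CPM with endo-EF and at 155, 105 and 179 CPM in iEF libraries. WT-EF left 42.9, 32.9 and 22.5 CPM, near but above the iLuc libraries. The gene fell by 2.80 with endo-EF (6.94-fold, SE 0.20, adjusted p = 4.63e-08) and fell by 2.15 with WT-EF (4.45-fold, SE 0.19, adjusted p = 1.29e-06). Δ22 libraries had 179, 179 and 196 CPM and DAF libraries 147, 116 and 138 CPM, and each set overlapped iEF.

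*SERPINE2* (ENSG00000135919, chr2:224839762-224904035, minus strand) encodes protease nexin-1, a serpin that inhibits thrombin, urokinase, tPA and plasmin. Its counts were the highest of the group, at 2233, 2120 and 2171 CPM in iEF libraries and 157, 150 and 182 CPM in iLuc libraries. WT-EF libraries had 906, 944 and 476 CPM, between the other sets without overlap. It fell by 3.73 with endo-EF (13.3-fold, SE 0.21, adjusted p = 6.38e-09) and fell by 1.5 with WT-EF (2.82-fold, SE 0.19, adjusted p = 3.54e-05). DAF libraries were close to each other at 1186, 1098 and 1074 CPM, under all iEF and over all WT-EF libraries. Δ22 libraries had 1680, 1674 and 2083 CPM, a range just under that of iEF.

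*SERPINB2* (ENSG00000197632, chr18:61538926-61571122, plus strand) encodes PAI-2, a serpin that inhibits both activators. It had 1.80, 2.36 and 2.06 CPM in iLuc and 33.0, 20.1 and 41.5 CPM in iEF libraries. The WT-EF libraries were unlike each other, at 14.95, 12.76 and 2.82 CPM, though all lay below iEF. *SERPINB2* fell by 3.86 with endo-EF (14.5-fold, SE 0.58, adjusted p = 6.78e-05) and fell by 1.49 with WT-EF (2.80-fold, SE 0.50, adjusted p = 0.0375). The WT-EF call was lost in 6 of 25 alternatives, with an adjusted p of up to 0.122 (without iEF replicate 1). DAF libraries had 40.7, 31.2 and 63.7 CPM and overlapped iEF. Δ22 libraries had 60.3, 49.1 and 167 CPM, above every iEF library.

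*TFPI2* (ENSG00000105825, chr7:93514708-93520065, minus strand) encodes a secreted Kunitz inhibitor of plasmin that binds to matrix. It was at 11.3, 9.73 and 11.4 CPM with endo-EF and at 576, 360 and 672 CPM in iEF libraries. The WT-EF libraries had 46.0, 33.8 and 9.45 CPM, so that the third lay below all 3 iLuc libraries. *TFPI2* fell by 5.60 with endo-EF (48.6-fold, SE 0.45, adjusted p = 1.65e-07) and fell by 4.14 with WT-EF (17.7-fold, SE 0.42, adjusted p = 4.1e-06). DAF libraries had 425, 262 and 510 CPM and Δ22 libraries 713, 562 and 821 CPM. Of its exons, 44 bases are shared with *GNGT1* on the opposite strand.

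*A2M* (ENSG00000175899, chr12:9220260-9268825, minus strand) encodes α2-macroglobulin, which cages proteases of all classes. It was nearly off with endo-EF, at 33, 28 and 19 counts or 1.01, 0.785 and 0.567 CPM. The iEF libraries had 12.8, 64.7 and 34.1 CPM and WT-EF libraries 5.43, 23.5 and 7.80 CPM. These ranges overlapped, but each WT-EF library was below the iEF library of the same number, and replicate 2 was the highest in 4 of the 5 conditions. *A2M* fell by 5.36 with endo-EF (41.1-fold, SE 0.41, adjusted p = 9.43e-08) and fell by 1.63 with WT-EF (3.10-fold, SE 0.31, adjusted p = 0.000955). Without iLuc replicate 1 the endo-EF value was -6.04. With no replicate block in the model the second difference was not called, at an adjusted p of 0.0756. DAF libraries had 23.1, 50.4 and 29.6 CPM and Δ22 libraries 13.1, 59.8 and 17.5 CPM. The antisense gene *A2M-AS1*, which shares 561 bases of exon, averaged at most 0.0965 CPM in any condition, and the pseudogene *A2MP1* at most 0.0851 CPM.

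*A2ML1* (ENSG00000166535, chr12:8975217-9039597, plus strand), an α2-macroglobulin relative known from epidermis, was the member that rose. It was at 10.4, 14.8 and 19.2 CPM with endo-EF and at 0.394, 0.978 and 0.349 CPM, or 15, 29 and 12 counts, in iEF libraries. WT-EF libraries had 5.90, 10.01 and 7.62 CPM, all above iEF and all below iLuc. It rose by 4.81 with endo-EF (28-fold, SE 0.54, adjusted p = 4.79e-06) and by 3.87 with WT-EF (14.6-fold, SE 0.54, adjusted p = 6.92e-05). The DAF libraries did not match each other, with 0.527, 9.13 and 5.47 CPM from 15, 346 and 163 counts. Δ22 libraries stayed at 0.381, 1.25 and 0.465 CPM.

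**Figure D2:**
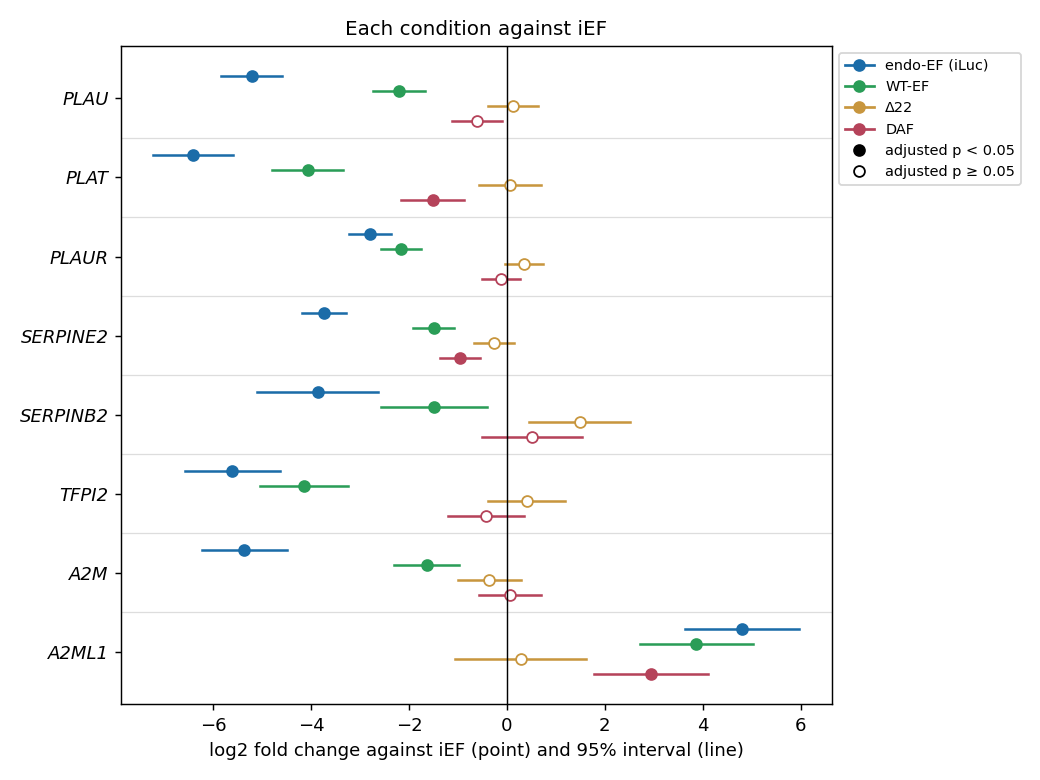
Fitted log2 fold change of each gene against iEF, with 95% intervals as lines. Filled points passed an adjusted p of 0.05. Changes with endo-EF and WT-EF passed for all 8 genes, those with DAF for *A2ML1*, *PLAT* and *SERPINE2*, and those with Δ22 for none.

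Δ22 was compared with iEF as the construct without the EWS domain. None of the 8 genes was called by edgeR's quasi-likelihood test, against 1.30% of all genes tested (0.472% higher and 0.830% lower). *SERPINB2* had an unadjusted p of 0.00839 in that test, and the share of all genes with an unadjusted p as low was not counted. Its log2 fold change was 1.48 (95% interval 0.44 to 2.52, adjusted p = 0.164), and it was higher in 3 of 3 replicate sets. The intervals of the others still held changes of some size, for example -0.39 to 0.63 for *PLAU*, -0.57 to 0.70 for *PLAT*, -0.04 to 0.74 for *PLAUR* and -0.66 to 0.15 for *SERPINE2*. For *A2ML1*, with few counts in both sets, the interval ran from -1.05 to 1.61. The DESeq2 Wald test and limma on the ComBat values likewise called 0 of the 8. Without WT-EF replicate 3, a library outside this comparison that enters the shared estimate of spread, *SERPINB2* was called, at 1.41 with an adjusted p of 0.00308.

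DAF was compared with iEF to see what remained when amino-terminal tyrosines of the EWS domain were replaced. *A2ML1* rose and *PLAT* and *SERPINE2* fell, while the other 5 were not called, against 11.2% of all genes tested (5.00% higher and 6.19% lower). The log2 fold change of *A2ML1* was 2.95 (7.70-fold, SE 0.54, adjusted p = 0.00294), and the DAF and iEF libraries overlapped. In the first replicate set the levels were close, at 0.527 CPM with DAF and 0.394 CPM in iEF. In the other sets DAF had 9.33 and 15.7 times the iEF level. *PLAT* fell by 1.52 (2.86-fold, SE 0.30, adjusted p = 0.00479) and *SERPINE2* fell by 0.96 (1.94-fold, SE 0.19, adjusted p = 0.0046), both with no overlap. *PLAU* was lower in 3 of 3 sets but had a change of -0.62 (95% interval -1.12 to -0.11) with an adjusted p of 0.121. The receptor gene *PLAUR* was at -0.12 (-0.51 to 0.26), *TFPI2* at -0.43 (-1.21 to 0.36), *SERPINB2* at 0.51 (-0.51 to 1.54) and *A2M* at 0.06 (-0.58 to 0.71). Without all libraries numbered 2, none of the 8 was called, *A2ML1* being at 2.69 with an adjusted p of 0.0734, and without those numbered 1 *PLAT* (adjusted p = 0.0854) and *SERPINE2* (adjusted p = 0.0649) were not.

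WT-EF and DAF were then set against each other directly. *PLAU*, *PLAT*, *PLAUR*, *SERPINE2*, *SERPINB2*, *TFPI2* and *A2M* were lower with WT-EF than with DAF, against 28.5% of all genes tested (16.1% lower and 12.4% higher). *TFPI2* differed most, at -3.72 (13.2-fold, SE 0.41, adjusted p = 1.71e-05), followed by *PLAT* at -2.55 (5.84-fold, SE 0.32, adjusted p = 4.2e-05) and *PLAUR* at -2.03 (4.08-fold, SE 0.19, adjusted p = 5e-06). *SERPINB2* was at -2.0 (-1.34 without WT-EF replicate 3), *A2M* at -1.70 and *PLAU* at -1.59. *SERPINE2* had the smallest difference, -0.54 (1.45-fold, SE 0.19, adjusted p = 0.0469), and without WT-EF replicate 3 it was -0.24 with an adjusted p of 0.125. *A2ML1* was at 0.92 (95% interval -0.03 to 1.88, adjusted p = 0.147), and at 0.35 (adjusted p = 0.467) without DAF replicate 1. In the first replicate set WT-EF had 11.2 times the *A2ML1* level of DAF, and in the other sets 1.10 and 1.39 times. *A2M* was again lost with no replicate block (adjusted p = 0.102).

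Against Δ22, WT-EF differed for all 8 genes, with the same 7 lower and *A2ML1* higher, against 30.3% of all genes tested (17.2% lower and 13.1% higher). *TFPI2* was at -4.54, *PLAT* at -4.13 and *A2ML1* at 3.59, and *SERPINE2* at -1.24 and *A2M* at -1.27 were the smallest. *SERPINB2* was at -2.97, and at -2.23 without WT-EF replicate 3. The adjusted p of *A2M* was 0.00553, and 0.148 with no replicate block. DAF and Δ22 differed for *A2ML1*, at 2.66 (6.34-fold, SE 0.53, adjusted p = 0.0206), and for *PLAT*, at -1.58 (3.00-fold, SE 0.30, adjusted p = 0.0168), against 1.33% of all genes tested (0.948% higher and 0.379% lower). The levels of *PLAUR*, *SERPINE2* and *TFPI2* were below those of Δ22 in every DAF library without being called, with changes of -0.47 (adjusted p = 0.33), -0.70 (adjusted p = 0.103) and -0.83 (adjusted p = 0.453). The *A2ML1* call was lost in 8 of 25 alternatives and that of *PLAT* in 6, and either was lost without DAF replicate 2, where they were at 2.15 (adjusted p = 0.183) and -1.49 (adjusted p = 0.111).

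**Figure D3:**
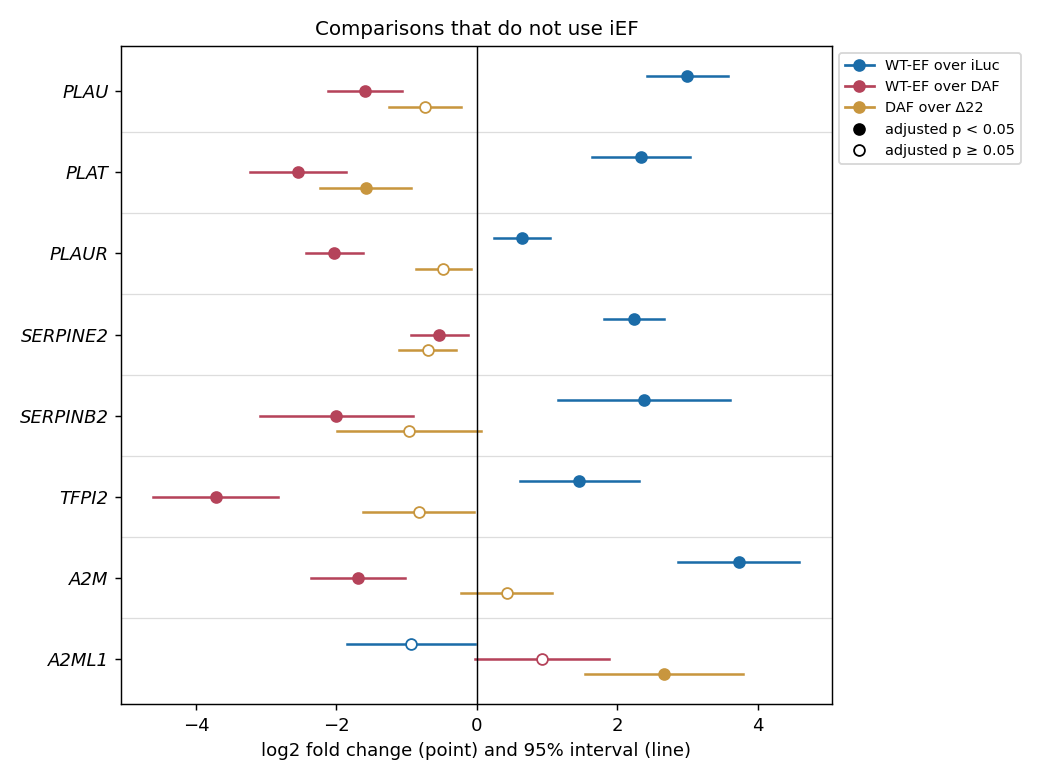
Fitted log2 fold changes between conditions other than iEF, with 95% intervals as lines and filled points for an adjusted p under 0.05. WT-EF lies above iLuc and below DAF for all genes but *A2ML1*, and DAF differs from Δ22 for *PLAT* and *A2ML1*.

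WT-EF was compared with iLuc to see how far the cDNA restored the levels of cells that were never depleted. The 7 genes lower with EWS/FLI were all higher in WT-EF than in iLuc cells, and 19.7% of all genes tested differed between these conditions (10.7% higher and 9.03% lower). The difference was 3.73 for *A2M* (13.3-fold, SE 0.40, adjusted p = 2.78e-05), 3.00 for *PLAU* (7.98-fold, SE 0.27, adjusted p = 5.96e-06) and 2.24 for *SERPINE2* (4.72-fold, SE 0.20, adjusted p = 5.79e-06). It was 2.38 for *SERPINB2* (SE 0.57, adjusted p = 0.00893), a call lost in 3 of 25 alternatives with an adjusted p of up to 0.172 without all libraries numbered 1. It was 2.34 for *PLAT* (adjusted p = 0.000206), and 1.06 (adjusted p = 0.0175) with the ComBat values, in which *A2M* was at 2.21, *PLAU* at 1.76 and *TFPI2* at 0.61 (adjusted p = 0.109). It was smaller for *TFPI2*, at 1.46 (2.75-fold, SE 0.40, adjusted p = 0.0175), and for *PLAUR*, at 0.64 (1.56-fold, SE 0.19, adjusted p = 0.0262), and these calls were each lost in 7 of 25 alternatives. Without WT-EF replicate 3 *TFPI2* was at 2.05 (adjusted p = 3.13e-08) and *SERPINB2* at 3.06 (adjusted p = 1.93e-06). *TFPI2* was higher in 2 of 3 replicate sets. *A2ML1* was below iLuc in every WT-EF library without being called, at -0.94 (95% interval -1.85 to -0.03, adjusted p = 0.149).

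Levels of different genes were compared after dividing CPM by kilobases of exon. In iEF cells *SERPINE2* (243 CPM per kb) and *TFPI2* (219) led with overlapping libraries, ahead of *PLAT* (92.0) and *PLAU* (72.4), which also overlapped. *PLAUR* (32.8), *SERPINB2* (11.5), *A2M* (5.88) and *A2ML1* (0.0802) followed, and *SERPINB2* and *A2M* overlapped. Among 27879 genes with a length, *SERPINE2* was 93rd and *TFPI2* 108th in iEF cells. In iLuc cells *SERPINE2* still led at 18.2 CPM per kb, then *PLAUR* (4.68) and *TFPI2* (4.43), which overlapped, *A2ML1* (2.06) and *PLAU* (1.96), which overlapped, *PLAT* (1.07), *SERPINB2* (0.756) and *A2M* (0.125). So *A2ML1* was the lowest of the 8 in iEF cells and outranked *PLAU*, *PLAT*, *SERPINB2* and *A2M* in iLuc cells, though its libraries overlapped those of *PLAU*. In WT-EF cells *SERPINE2* (86.6) stood apart, and each of the others, from *PLAU* (15.3) to *A2ML1* (1.10), overlapped its neighbour in the order.

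**Figure D4:**
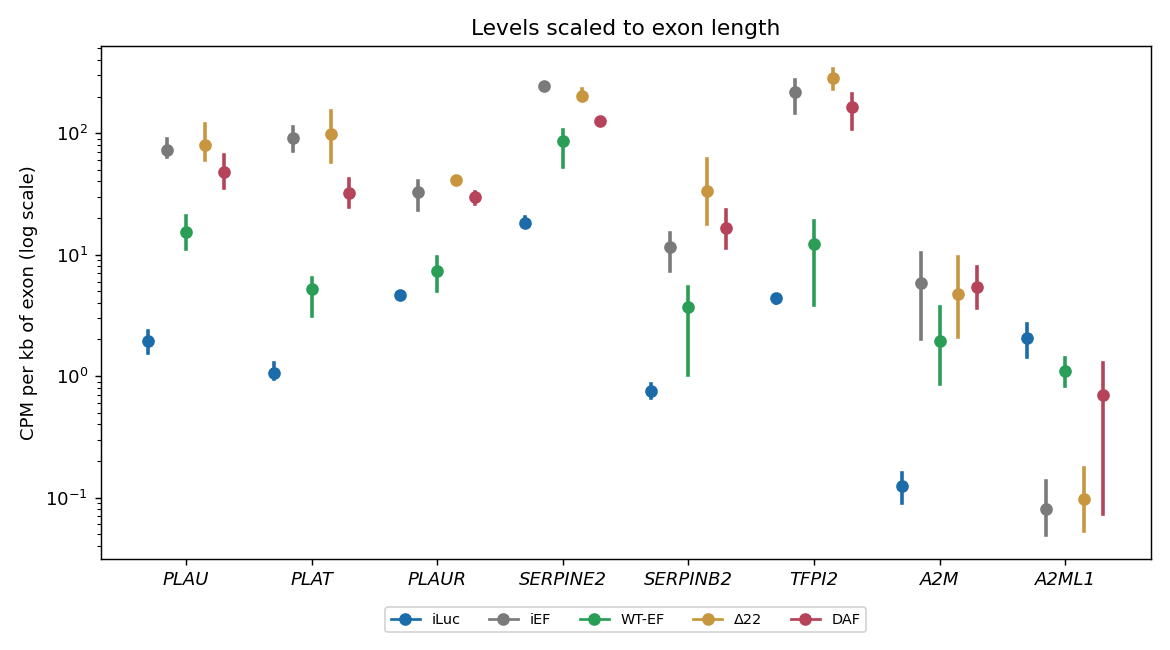
Level of each gene in CPM per kb of exon (log scale) by condition, with points for means and lines from the lowest to the highest of 3 libraries. *SERPINE2* and *TFPI2* lead in iEF, Δ22 and DAF cells, and *A2ML1* is the lowest in every condition but iLuc.

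The order of the activators per exon length also differed between conditions. The ratio of *PLAT* to *PLAU* per exon length was 1.44, 1.11 and 1.26 in iEF libraries and 1.37, 0.956 and 1.28 with Δ22. It was 0.540, 0.647 and 0.472 with endo-EF, 0.304, 0.456 and 0.278 with WT-EF, and 0.697, 0.694 and 0.638 with DAF. Per exon length *PLAT* was thus ahead of *PLAU* in all iEF libraries and in 2 of 3 Δ22 libraries. *PLAU* was ahead wherever endo-EF, WT-EF or DAF was present, and the 3 WT-EF ratios lay below all others. In CPM, without this scaling, *PLAT* was above *PLAU* in every iLuc and DAF library. With endo-EF it was at 9.87, 7.74 and 7.28 CPM against 6.94, 4.54 and 5.85 CPM. With DAF it was at 234, 190 and 327 CPM against 128, 104 and 194 CPM. Among the WT-EF libraries it was above *PLAU* only in replicate 2, at 48.9 against 40.7 CPM. The order in those libraries therefore rests on the exon lengths, 7770 bases for *PLAT* and 2949 for *PLAU*. These lengths join all annotated exons of a gene and need not be those of the transcripts expressed. These ratios are given as a description, with no test, and depend on the exon lengths used.

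Genes with a pattern most like each member were found by Pearson's r of log2 CPM over the 15 libraries, among 12719 genes. The points share the same 5 conditions, so the values are descriptions. *PLAUR* and *TFPI2* were each other's nearest gene (r = 0.995). The nearest to *PLAU* was *LOXL2* (r = 0.995), which encodes a lysyl oxidase, and then *TGFBI* (r = 0.994), a matrix protein that was also among the nearest to *SERPINE2* (r = 0.989). For *PLAT* they were *RAI14* (r = 0.995) and *RFX8* (r = 0.993), for *SERPINE2* *FRMD4A* (r = 0.992) and *CDH13* (r = 0.990), and for *SERPINB2* *CDK17* (r = 0.985). *A2M* was nearest to *POSTN* (r = 0.964), which encodes the matrix protein periostin, and *A2ML1* to *MYOM2* (r = 0.979).

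Other genes of the same systems were taken from 6 lists of 79 genes, of which 67 were tested. With endo-EF 36 of them fell and 2 rose, against 22.1% and 19.5% of all genes tested, with a median log2 fold change of -1.51 against 0.04 for all genes tested, and of -0.93 with genes at 0 counts in 1 condition set to their bound. With WT-EF 32 fell and 4 rose, against 17.0% and 12.9% of all genes (median -1.13, and -0.01 for all genes). With Δ22 2 fell and 1 rose, against 0.830% and 0.472% of all genes, and with DAF 9 fell and 5 rose, against 6.19% and 5.00%. WT-EF exceeded iLuc for 21 of them and was below it for 4, against 10.7% and 9.03% of all genes. These lists were drawn up with earlier results known.

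Within the plasminogen system, 7 of 16 genes tested fell with endo-EF and 1 rose, beside 22.1% and 19.5% of all genes tested. In both directions together 8 of 16 were called, near the 41.6% of all genes. With WT-EF 10 of 16 fell and 1 rose, beside 17.0% and 12.9% of all genes tested. *S100A10*, a plasminogen receptor subunit, fell by 4.69 with endo-EF and fell by 3.05 with WT-EF, and its WT-EF libraries ranged from 8.01 to 48.6 CPM. *FAP*, a surface protease whose soluble form cuts the plasmin inhibitor α2-antiplasmin, fell by 4.89 with endo-EF and fell by 3.49 with WT-EF. *SERPINA5* was at 0 in all iLuc and WT-EF libraries, at least 1.18-fold lower than in iEF with endo-EF. *PLG*, plasminogen itself, was under the filter, with at most 1 count in any library. The gene that rose was *CPB2*, named after its value was seen, which encodes a carboxypeptidase that removes plasminogen binding sites from fibrin. It was at 9.82 to 12.5 CPM with endo-EF, 11.2, 16.4 and 19.1 CPM with WT-EF, and 0.315, 1.28 and 0.320 CPM in iEF libraries. Its changes were 4.29 (adjusted p = 2.12e-06) and 4.73 (adjusted p = 2.21e-06), and it was not called with DAF (1.38, adjusted p = 0.0772) or Δ22 (1.42, adjusted p = 0.168).

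Of the other serpins, 12 of 22 fell with endo-EF and 1 rose, beside 22.1% and 19.5% of all genes tested. The riser, *SERPINB13*, an epithelial serpin, had 1, 2 and 1 counts in iEF libraries and 54, 70 and 78 in iLuc libraries (adjusted p = 0.000116), so no fold is given. It had 7, 25 and 8 counts with WT-EF (adjusted p = 0.0456 against iEF) and 10, 93 and 202 with DAF (adjusted p = 0.000609). The DAF libraries ran from 0.351 to 6.77 CPM and overlapped WT-EF, from which they were called different (adjusted p = 0.00303). *SERPINA9*, *SERPINA1* and *SERPINA12* were at 0 in all iLuc libraries and at least 6.34-fold, 2.34-fold and 1.07-fold below the iEF mean. The iEF libraries of *SERPINA12* ran from 0 to 8 counts and so overlapped iLuc. In the α2-macroglobulin family beside *A2M* and *A2ML1*, 1 of 3 genes was called, against 41.6% of all genes. This was *CD109*, which fell by 3.09 with endo-EF and fell by 2.15 with WT-EF, while the median of the list was 0.92.

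Of the Kunitz-domain inhibitors, 4 of 8 fell with endo-EF and none rose, beside 22.1% and 19.5% of all genes tested. In both directions together 4 of 8 were called, again near the 41.6% of all genes. With WT-EF 5 of 8 fell and none rose, beside 17.0% and 12.9% of all genes tested. The following values are those with endo-EF. The log2 fold change was -4.31 for *SPINT2*, -1.81 for *APLP2*, -1.76 for *TFPI* and -0.27 for *APP*. *TFPI*, the inhibitor of the tissue factor pathway and a relative of *TFPI2*, was at means of 92.2 CPM in iLuc, 315 CPM in iEF, 118 CPM in WT-EF, 321 CPM in DAF and 401 CPM in Δ22 cells. Of other secreted inhibitors, 6 of 8 fell with endo-EF, against 22.1% of all genes, with *SPOCK1* at -6.10 and *CST6* at -2.11. *PI3*, with 0 to 3 counts in iLuc and 5 to 21 in iEF libraries, and *SLPI*, with 0 and 2 to 3, were too low for a fold change. Of the genes of tissue factor, thrombin and protease-activated receptors, 6 of 10 fell with endo-EF and none rose, against 22.1% and 19.5% of all genes, among them *F2RL1* (-4.20), *F10* (0 to 2 counts in iLuc and 2 to 7 in iEF libraries), *F3*, which encodes tissue factor (-2.17), and *THBD* (-5.77).

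*THBD*, which encodes thrombomodulin, the surface cofactor with which thrombin activates protein C and the *CPB2* enzyme, differed between constructs. It had 0.0917, 0.224 and 0.0896 CPM, or 3, 8 and 3 counts, with endo-EF, 10.8, 6.54 and 5.82 CPM in iEF libraries and 3.18, 2.30 and 0.160 CPM with WT-EF. DAF libraries had 39.6, 21.5 and 22.1 CPM and Δ22 libraries 35.2, 32.9 and 27.0 CPM, all above iEF. It fell by 5.77 with endo-EF (adjusted p = 2.5e-06) and fell by 2.15 with WT-EF (adjusted p = 0.00123), and rose by 1.85 with DAF (adjusted p = 0.00582) and by 2.10 with Δ22 (adjusted p = 0.0149).

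**Figure D5:**
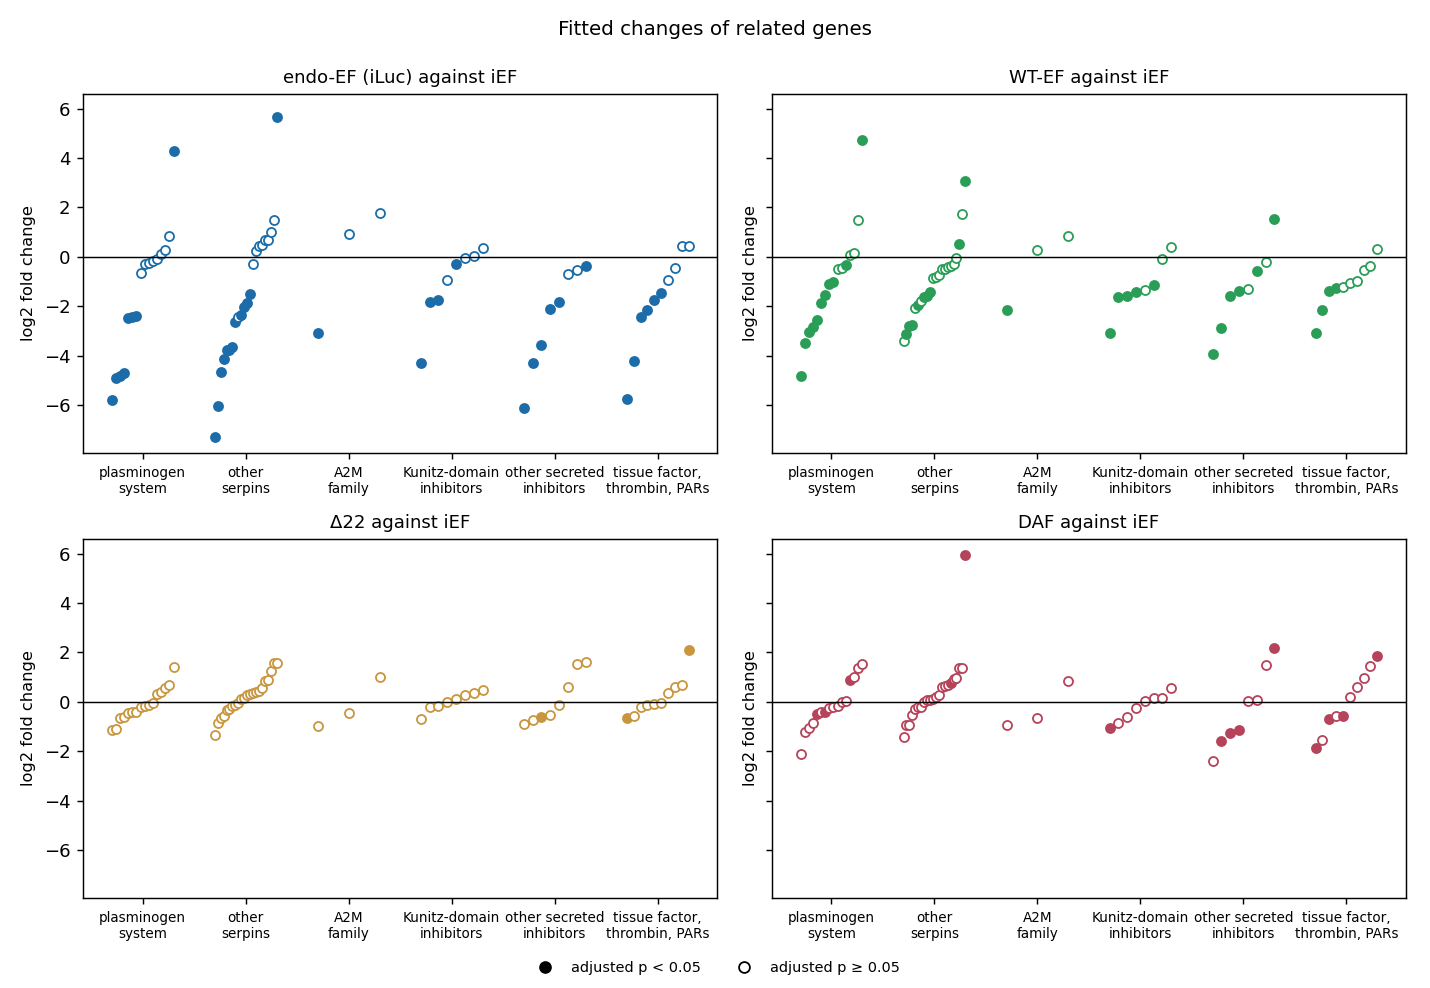
Fitted log2 fold changes against iEF for the 67 tested genes of 6 related lists, each a point, ordered within a list, with filled points for an adjusted p under 0.05. With endo-EF 36 fell and 2 rose, with WT-EF 32 and 4, with Δ22 2 and 1, and with DAF 9 and 5.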

How the data were processed

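Total RNA of 15 A673 libraries was measured by RNA-seq. Per the labels and methods, the authors used STAR and hg19 for alignment and counted paired-end reads per gene with *htseq-count* (intersection-strict), and the counts were deposited without normalization. A table of counts adjusted by the authors with ComBat, decimal signal values, served for 1 alternative. A deposited table of DESeq2 fold changes and p-values was not used, nor were 3 columns of other samples.

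Genes with an average of 1 or more counts per library entered a quasi-likelihood model in edgeR 4.0.16 (R 4.3.3), with TMM scaling. The model held all libraries and had terms for condition and, as a block, replicate number. Benjamini-Hochberg adjustment covered all genes in each of 8 comparisons, with a cutoff of 0.05. Deviations from group means had a median r of 0.185 in 30 pairs of libraries with the same number. Of these, 21 were above 0.1 and the lowest was -0.183. The study's adjustment of each replicate set for batch effects also assumes such sets. The median r of 60 pairs with unlike numbers, -0.0842, is tied to the first value by taking deviations from means and is no separate comparison. Replicates differed beyond counting noise (chi-square per gene 12.9 to 83.2 over 15 pairs). Bounds against groups at 0 use a floor of 3 counts per library and cover counting error only. The script was tested on simulated data.

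Genes and lists were chosen with earlier results of these data known. Named related genes were those past the cutoff with endo-EF and the largest absolute fold change, at most 4 per list, and others were named after their values were seen. A gene that the rule also named is not reported here. For each gene, the nearest in pattern were sought among genes averaging at least 50 counts. Exons and positions came from GENCODE on GRCh37. Alternatives were DESeq2 1.42.0 (test and size factors), other count filters, no block, only the 6 libraries compared, limma 3.58.1 on the ComBat table (pseudocount 1), and fits without each replicate set or library. Shares of all genes called were counted for the model described above and not for the alternatives.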

Additional observations from a re-analysis of the deposited data

How the results depend on the processing

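Across 25 alternatives, 8 of the 8 genes were called with endo-EF in each, 7 to 8 with WT-EF against iEF, 7 to 8 for WT-EF against Δ22 and 6 to 8 for WT-EF against DAF. Leaving out a replicate set or a library gave 0 to 3 genes called with Δ22 (none in the fit of all libraries), 0 to 5 with DAF (3), 4 to 8 for WT-EF against iLuc (7) and 0 to 6 for DAF against Δ22 (2). With no filter on low counts 1 gene was called with Δ22 and 7 between DAF and Δ22. Fits of only the 6 libraries compared called 1 with Δ22, 6 with DAF and 8 between DAF and Δ22. The share of all genes called was not counted for any of these alternatives. The numbers therefore show how calls moved with the setting and are no result about the 8 genes. With no replicate block, and with the ComBat values in limma, 1 was called between DAF and Δ22. The block otherwise changed the calls of *A2M* given above and of *A2ML1* between DAF and Δ22 (adjusted p = 0.101 without it), and no other call of the 8 genes. The *SERPINB2* call with WT-EF was lost in 6 alternatives and that of *SERPINE2* between WT-EF and DAF in 15. The causes were not tested.

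Directions turned only for changes that were not called. With Δ22, *PLAT* was at -0.017 with the ComBat values. Leaving out a replicate set or library, it ranged from -0.36 to 0.30 (without replicate 3 it was -0.18), *PLAU* from -0.15 to 0.31 (-0.042 without replicate 3) and *A2ML1* from -0.044 to 0.51 (-0.019 without iEF replicate 3). With DAF, *A2M* was at -0.11 with no replicate block and from -0.26 to 0.33 with a set or library left out, and *PLAUR* from -0.28 to 0.11.

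Counts limited *A2ML1* in iEF, Δ22 and 1 DAF library and *A2M* in iLuc cells, each with under 50 counts per library. Over the settings, the related lists had 1 to 12 genes called higher and 3 to 16 called lower with DAF, 0 to 12 called lower for DAF against Δ22, and 8 to 27 called higher for WT-EF against iLuc. Here too the share of all genes called in each setting was not counted.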
